A study of Mus musculus with 8 samples.

Results

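In mouse colon tumours, 138 abundant protein-coding genes read higher in every library from mice in which the gut epithelium lacks miR-29ab1 (KO) than in every wild-type (WT) library. They were picked by that pattern from a deposited table of 1428 genes. A gene was taken when its mean over the 8 libraries reached 500 normalized counts (reads divided by a library's size factor) and its lowest KO value lay above its highest WT value. Genes of several large families, among them transporters, zinc finger proteins, detoxifying enzymes and ribosomal or mitochondrial subunits, and 6 single genes were left out by name. Since the values that chose the members are the KO and WT values themselves, the difference between the groups is described here and not tested.

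Total RNA from colon tumours of C57BL/6N mice was sequenced in 4 WT and 4 KO libraries. The series text says that mice were given azoxymethane, which mutates DNA in the colon, together with dextran sodium sulfate, an irritant of its lining, to bring on tumours. The KO label carries the word Vilin. The driver line, the age and sex of the animals, the number of tumours per library, and whether the WT mice carried any allele or Cre of their own are not stated in the labels used here. No listed gene is named for miR-29, so the deletion itself could not be checked. The tissue was bulk tumour, in which more cells of a type and more RNA per cell cannot be told apart.

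MicroRNAs of the miR-29 family are short RNAs that guide a silencing complex to matching sites, most often in the 3′ untranslated region (UTR) of a messenger RNA, and lower its stability or translation. Pairing of the seed, a stretch near the 5′ end of the microRNA, is the main contact with the target. Colon tumours hold epithelial cells that renew from crypt stem cells and mature into absorptive colonocytes and secretory cells, together with immune, stromal and vascular cells that an epithelial deletion does not reach.

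The mature strands are shown because members can be searched for the site that they read. The cluster named in the labels holds miR-29a and miR-29b-1, both on the minus strand of chromosome 6, and miR-29c lies on the plus strand of chromosome 1 beside miR-29b-2, which yields the same miR-29b-3p (RefSeq, GRCm38.p6). Capitals mark the seed, bases 2 to 8, which is the same in all 3.
miR-29a-3p, chr6:31062673-31062694: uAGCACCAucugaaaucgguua
miR-29b-3p, chr6:31063025-31063047: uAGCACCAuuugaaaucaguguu
miR-29c-3p, chr1:195037600-195037621: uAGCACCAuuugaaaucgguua

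The seed match TGGTGCT was searched on the transcript strand in the longest GENCODE M21 3′ UTR of each gene. Of 136 members with a UTR, 33 (24.3%) held it. The windows below are a selection, from members with more than 1 match, with a match followed by A, or with values given further on (GRCm38, transcript strand). Capitals mark the match.
Capn5, UTR bases 483 to 489: ctataccagtttgagTGGTGCTggg
Capn5, UTR bases 1332 to 1338: ggaactcttgtttacTGGTGCTgtg
Zdhhc5, UTR bases 606 to 612: agtagcactctctgcTGGTGCTaag
Zdhhc5, UTR bases 1002 to 1008: tagcccatctcaataTGGTGCTggg
Tspan15, UTR bases 932 to 938: atgccaaacaaagctTGGTGCTtgc
Tspan15, UTR bases 1220 to 1226: atagacagaaactctTGGTGCTcac
Atg9a, UTR bases 855 to 861: ccttggctcagagtgTGGTGCTaga
Foxj2, UTR bases 510 to 516: tgcagttttactcaaTGGTGCTaat
Arhgap32, UTR bases 6021 to 6027: catcatggtgtactaTGGTGCTaca
Rubcn, UTR bases 678 to 684: aagtgcggctacagcTGGTGCTtaa
Pag1, UTR bases 4606 to 4612: tctgtactgtgtggcTGGTGCTctt
Hnf4a, UTR bases 393 to 399: gggcctcttccttccTGGTGCTggt
Foxo3, UTR bases 1296 to 1302: gtttccaaaaagttaTGGTGCTgta

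A match says only that these letters are present. Among the abundant coding genes that were higher in KO but are no members, 35 of 164 (21.3%) held one. The 107 abundant coding genes that were lower in every KO library held it in 12 of 106 (11.3%), all listed coding genes in 176 of 1077 (16.3%), and all GENCODE coding genes with a 3′ UTR in 2755 of 21020 (13.1%). The UTRs differed in length, with a median of 1841 bases in the members and 1360 in the other abundant higher genes. The median was 1113 bases over all listed coding genes, 963 in the genes of the lower set and 961 over GENCODE. Per kilobase of UTR searched, the members held 0.141 matches and the other abundant higher genes 0.139. All listed coding genes held 0.122, the lower set 0.102 and GENCODE 0.106.

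Within the set, the 33 members with a match had, in the authors' deposited table, a median log2 fold change of 0.50, and the 103 members without one had 0.49. With KO replicate 4 left out, the median KO over WT ratio was 1.29 with a match and 1.30 without. Members with a match had longer UTRs, with medians of 2819 and 1400 bases. The largest log2 fold change was 0.98 with a match and 1.53 without. None of the 73 published miR-29 targets on a list of that name was a member, and 8 of them were listed at all, 5 higher and 3 lower in KO. Hdac4, one of these 8, was left out by name. Of all listed genes 9.66% are members, and among 8 genes the lack of a member cannot be told from that share.

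Reads over the listed genes numbered 1202677 to 1268646 in the WT libraries, 1316787 to 1533770 in KO replicates 1 to 3 and 2180787 in KO replicate 4. Total depth per library is unknown. The inferred size factors ran from 0.933 to 1.12, with 1.02 in KO replicate 4. The members took 22.8% to 28.0% of those reads in WT and 31.3% to 33.3% in KO. They were chosen as higher in KO, so this is a description. Lypd8 alone made up 243970 of the members' 709235 normalized counts in KO replicate 4 and 39837 of 276825 in WT replicate 4. KO replicate 4 stood apart from the other KO libraries, with 193 to 267 for the chi-square divided by its degrees of freedom against each of them, where pairs among KO replicates 1 to 3 gave 19.8 to 25.4. WT replicate 4 stood apart from the other WT libraries too, at 61.0 to 94.2, where pairs among WT replicates 1 to 3 gave 24.7 to 33.6. Nothing in the labels says that the libraries are separate animals, so p-values rest on a spread that may be technical.

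Every gene in the deposited table has an unadjusted p below 0.05, and its adjusted p refers to 19985 genes. In the authors' deposited table, 1 member passed an adjusted p of 0.05 by DESeq2, Capn5, where 6 of the 19985 genes (0.0300%) were called higher. The next lowest adjusted p among members was 0.198, 11 members were below 0.3, and the median was 0.649. Of 303 abundant coding genes that were higher in KO, 155 had the groups apart, and 17 of these were left out by name. Of all listed genes, 342 (23.9%) had every KO library above every WT library, whatever their level or type.

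Levels ran from a mean of 509 normalized counts over the 8 libraries for Pon3 to 107205 for Lypd8, with a median of 1583. In the authors' deposited table the log2 fold change ran from 0.23 for Cast to 1.53 for Wfdc2, with a median of 0.50, beside 0.48 over all listed genes and 1.00 over the listed genes that were higher. The members' median was thus below that of the listed genes that were higher. KO means were at least 1.2 times WT means in 137 members, at least 1.5 times in 41 and at least 2 times in 3, which were Wfdc2, Themis3 and Spats2l.

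**Figure D1:**
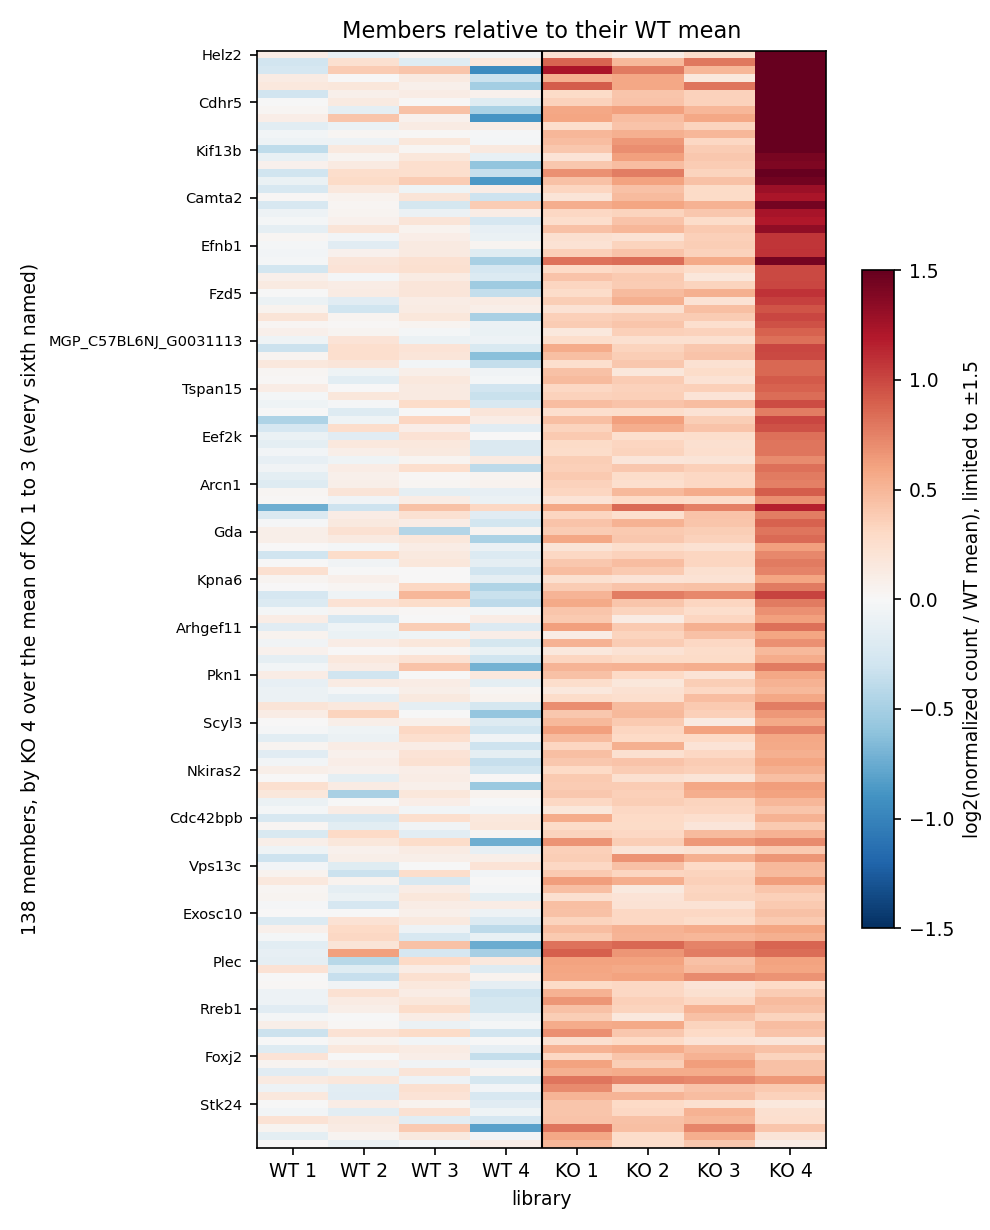
Each row is 1 of the 138 members and each column a library; the colour is log2 of the normalized count over the member's WT mean, limited to ±1.5. Rows are ordered by KO replicate 4 over the mean of KO replicates 1 to 3, and the darkest cells stand in the KO 4 column in the upper part, where that ratio is 1.5 or more in 36 members.

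The 4 KO libraries did not contribute evenly. KO replicate 4 was the highest KO library in 109 members (79.0%) and KO replicate 3 the lowest in 55. In WT, replicate 4 was the lowest in 74 members (53.6%) and replicate 3 the highest in 74. The median member stood at 1.32, 1.30 and 1.28 times its WT mean in KO replicates 1 to 3 and at 1.68 times in KO replicate 4, as the heat map shows. The WT libraries stood at 0.982, 1.04, 1.09 and 0.912.

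KO replicate 4 was at least 1.5 times the mean of the other KO libraries in 36 members and at least 2 times in 14. It was within 10% of that mean in 32 members and below it in 16. Without KO replicate 4, the median KO over WT ratio was 1.30, where it was 1.41 with it, and the count of members at 1.5 times or more fell from 41 to 12, and at 2 times or more from 3 to 0. The abundant coding genes that were higher with overlapping groups leaned on that library more, with a median of 1.99 for KO replicate 4 over the other KO libraries against 1.27 in the members. Their groups overlap by the choice of members, so this is a description.

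**Figure D2:**
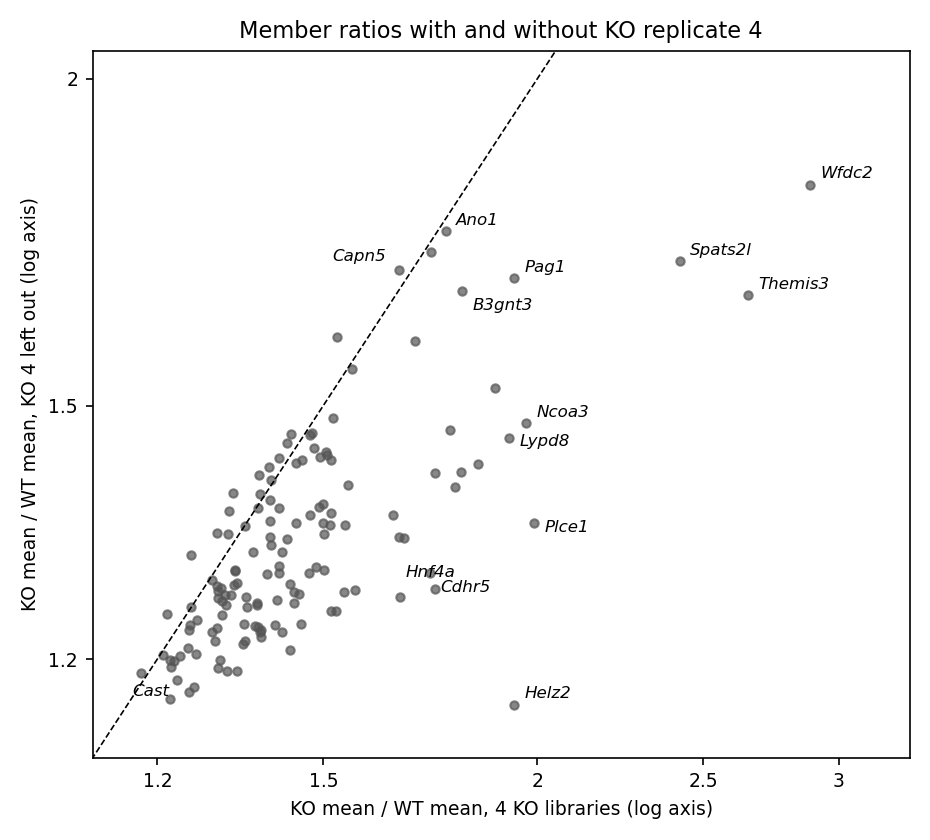
Each point is a member, with the ratio of KO to WT mean over all KO libraries on the x axis and with KO replicate 4 left out on the y axis (both log axes; dashed line, equal ratios). Helz2 drops from 1.94 to 1.15 and Wfdc2 from 2.89 to 1.82, while Capn5 and Ano1 lie near the line.

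Markers of some other cell types were highest in the same library. No member is among the 136 marker genes of 14 cell types, of which 31 were listed. This absence follows in part from the rule, which left out Lrmp by name and every gene with a mean below 500. The listed T and NK cell, fibroblast, endothelial, smooth muscle, enteric neuron and neutrophil markers all lay below that level and could not be members. Of 15 B cell markers 14 were listed, all higher in KO, and their summed level was 162 to 394 normalized counts in WT, 286, 1273 and 473 in KO replicates 1 to 3 and 4125 in KO replicate 4. The 3 listed enteroendocrine markers, Chgb, Neurod1 and Gcg, summed to 207 to 442 in WT, 274, 667 and 414 in KO replicates 1 to 3 and 2412 in replicate 4. Lgals4, the one listed of 10 general epithelial markers, was at 13988 to 33046 in WT and at 32521 to 39648 in KO replicates 1 to 3, with 70224 in replicate 4. The 3 listed of 16 T and NK cell markers, Cd4, Trbc1 and Cd8b1, summed to 59.3 to 78.1 in WT and 127 to 159 in KO, without KO replicate 4 standing apart. The 2 listed tuft cell markers, Lrmp and Trpm5, summed to 378 to 581 in WT and 801 to 1301 in KO, highest in replicate 2. The 2 listed fibroblast markers, Dpt and Mfap5, summed to 65.8 to 129 in WT and 130.2 to 201 in KO. Both pairs thus had every KO library above every WT library, as the members do. Lyve1, the listed endothelial marker, was at 23.6 to 50.6 in WT and 31.1 to 159 in KO, Myocd of smooth muscle at 0 to 6.81 and 2.14 to 24.0, and Chat of enteric neurons at 0 in all WT libraries and 0.890 to 39.1 in KO. The 2 listed mast cell markers, Mcpt1 and Tpsb2, went the other way, at 86.0 to 2191 in WT and 11.7 to 449 in KO. Of neutrophil markers only Mpo was listed, at 2.92, 0, 0 and 23.3 in WT and at 0 in all KO libraries. No goblet, plasma cell or macrophage marker was listed. The part of cell composition in the members' values was not tested.

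Role lists of 2215 symbols in all, written with earlier results of these data known, held 54 of the members, and 84 members were on none. Of the 33 lists, 20 had a member. A listed gene is called higher or lower by the sign of its deposited fold change, and of the members Capn5 alone passed the adjusted threshold. Counts on a list are to be read against all listed genes, of which 829 of 1428 (58.1%) were higher and 138 (9.66%) are members. Only abundant coding genes could be members. Of these 303 of 493 (61.5%) were higher and 138 of 493 are members, which is the closer background for lists of abundant genes. No list was tested. Where a ratio of KO to WT mean is followed by a value in brackets, that is the ratio without KO replicate 4. Values below are normalized counts in replicates 1 to 4 of each group.

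Several of the most abundant members were genes of mature colonocytes and their surface. Lypd8, a glycoprotein that colonocytes release to keep flagellated bacteria from the epithelium, was at 78765, 98114, 76376 and 39837 in WT and at 110101, 101311, 109163 and 243970 in KO. KO replicate 4 was far above the rest, WT replicate 4 far below, and the lowest KO library exceeded the highest WT library by a factor of 1.03. Cdhr5, a protocadherin that links the tips of microvilli, was at 6191, 6827, 6288 and 5470.3 in WT and 7846, 8335, 7873 and 18826 in KO, so that KO replicates 1 to 3 lay close together just above WT. Gpa33, the A33 antigen of intestinal epithelium, was at 8684, 9342, 9786 and 7897 in WT and 11427, 12014, 11301 and 18899 in KO, again with KO replicate 4 apart. Hnf4a, a nuclear receptor that maintains intestinal epithelial identity, read 5904, 7600.2, 7820.1 and 7532 in WT and 8832, 9590.1, 9197 and 22661 in KO. Its ratio was 1.74 with all libraries and 1.28 without KO replicate 4. Klf5, a factor of proliferating crypt cells, showed the reverse order, with 5644, 4436, 5363 and 4308 in KO, replicate 4 being the lowest, and 3322, 3525, 4244 and 1834 in WT.

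Of 14 listed genes on the colonocyte differentiation list, 13 were higher and 1 lower, and the 4 members were Lypd8, Cdhr5, Hnf4a and Klf5. Klf5 is counted because it is on the list, although it is a factor of proliferating crypt cells. None of the 14 passed the adjusted threshold by DESeq2 in the authors' deposited table, and all 14 are below an unadjusted p of 0.05, as every listed gene is. The list of stem and proliferation genes had 4 listed genes, 1 higher and 3 lower, and no member. Per kilobase of gene length, Lypd8 had the highest level of the members in KO (109919 normalized counts per kilobase). Gpa33 (4896), Cdhr5 (4078), Actn4 (3393), Klf5 (2869) and Hnf4a (2604) followed, and Mdn1 had the lowest (36.9). The deposited length of Klf5, 1721 bases, is below its longest GENCODE 3′ UTR of 1841 bases, so its place is uncertain.

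Cytoskeletal members included some of the most abundant. Actn4, an actin crosslinker, was at 11144, 11476, 14049 and 9860.0 in WT and 16013, 15613, 16007 and 22928 in KO, with KO replicates 1 to 3 within a narrow band. Plec, the plectin that ties intermediate filaments to junctions, was at 8764, 7220.1, 11908 and 10735 in WT and 14689, 14661, 13078 and 14637 in KO; here KO replicate 3 was the low one and WT varied more than KO. Iqgap1, a scaffold that binds active Rac and Cdc42, was at 7302, 9777, 9299 and 7334 in WT and 10641, 10441, 10176 and 11022 in KO. The WT libraries of Iqgap1 fell into 2 high and 2 low values, and the higher ones came close to KO. Myo1d, a motor of the brush border, was at 3166, 4526, 4040.0 and 3358 in WT and 4755, 5494, 5057 and 7306 in KO. Epb41l1, which joins membrane proteins to spectrin and actin, had a KO over WT ratio of 1.85 that was 1.42 without KO replicate 4. Of 10 listed brush border and actin genes, 9 were higher and 1 lower, and 3 were members.

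Regulators of the small GTPase switches that remodel actin were listed in 13 cases, all higher, and 5 were members. Dock5, which activates Rac, was at 2102, 2680.3, 2623 and 2212 in WT and 3439.9, 3549, 3345 and 3254 in KO. All KO libraries of Dock5 were alike, and replicate 4 was the lowest of them. Arhgef11, a guanine nucleotide exchange factor of these switches, was at 888, 953, 1285 and 863 in WT and 1522, 1309.5, 1446 and 1772 in KO, and its highest WT library reached almost to the lowest KO library. Itsn2, an endocytic scaffold that activates Cdc42, had a ratio of 1.30 (1.34), Cdc42bpb, a kinase that acts below Cdc42, 1.33 (1.30), and Arhgap32, which turns such switches off, 1.29 (1.23). Activators and an inactivator of these switches thus stood side by side in the set.

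Proteins of the cell surface, some of them receptors and ligands of cell guidance, formed another group. All 10 listed genes of the cell surface and guidance list were higher, and 6 were members. That list is wider than guidance and also holds galectins, tetraspanins and Gpa33. Plxnb2, a semaphorin receptor, was at 7212, 7471, 8046 and 8568 in WT and 10128, 8872, 8939 and 12792 in KO, with WT replicate 4 the highest of its group, unlike most members. Plxna2, another semaphorin receptor, was at 986, 1159, 894 and 715 in WT and 1291, 1347, 1378 and 1414 in KO, with even KO values. Tspan15, a tetraspanin that partners the sheddase ADAM10, had a ratio of 1.41 (1.26), Cd82, also a tetraspanin, 1.44 (1.26), and Pcdh1, a protocadherin, 1.22 (1.19). Efnb1, a ligand of Eph receptors, was at 1397, 1263, 1560.4 and 1468 in WT and 1648, 1791, 1839 and 3001 in KO; without KO replicate 4 its ratio went from 1.46 to 1.24. L1cam, an adhesion molecule, was at 545, 803, 796 and 526 in WT and 1074, 1137, 839.9 and 1997 in KO, where replicate 3 lay close to the highest WT library. Dag1, the laminin receptor dystroglycan, stood at 3453, 3827, 4187 and 2798 in WT and 4702, 4778, 4630.3 and 5356 in KO, where the 4 libraries were close. Fzd5, a Wnt receptor, had a ratio of 1.54, and 1.35 without KO replicate 4.

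Kinases and lipid signalling enzymes were represented at several steps. Of 14 listed kinases 11 were higher and 3 lower, and 6 were members. Mink1, a Ste20 family kinase, was at 2437, 1855, 2270.3 and 1843 in WT and 3160.3, 3123, 2931 and 3164 in KO, one of the more even members. Sipa1l1, which inactivates the Ras relative Rap, had a ratio of 1.38 (1.23). It is on the Ras and MAPK list, whose 6 listed genes were all higher and none past an adjusted p of 0.05. Plce1, a phospholipase C that Ras proteins regulate, was at 719, 663, 724 and 527 in WT and 953, 981, 737 and 2573 in KO, and KO replicate 3 was barely above WT while replicate 4 was far above. Plcb3, a phospholipase C driven by G proteins, was at 5925, 5209.6, 5909 and 6734 in WT and 7098, 7135, 6936 and 10146 in KO, and 3 of its KO libraries were nearly equal just above WT replicate 4.

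Pi4ka, which makes the lipid precursor of plasma membrane phosphoinositides, had a ratio of 1.42 (1.32), and Dgka, which converts diacylglycerol to phosphatidic acid, 1.57, which was 1.28 without KO replicate 4. Among phosphatases 5 of 7 listed were higher and 3 were members, with ratios of 1.30 (1.23) for Ppp1r3b, which directs a phosphatase to glycogen, 1.41 (1.24) for Inppl1, a phosphoinositide phosphatase, and 1.35 (1.26) for Ppp1r12a, a subunit of myosin phosphatase. Of 16 listed lipid metabolism genes 12 were higher, and the members were Plce1, Plcb3 and the hydrolase Abhd2, which was at 8259, 10216, 9433 and 7055 in WT and 12554, 10812, 10362 and 11414 in KO. In Abhd2 WT replicate 2 nearly met the lowest KO library.

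Members that act in membrane traffic and autophagy included several with clear gaps. Rubcn, which restrains autophagy and endosome maturation, was at 545, 428, 642 and 567 in WT and 814, 826, 894 and 868 in KO, with similar values in all KO libraries. Atg9a, a membrane protein that supplies lipid to forming autophagosomes, was at 549.6, 495, 541 and 344 in WT and 618, 629, 626 and 968 in KO, and KO replicates 1 to 3 were nearly equal. Vps13d, a lipid transfer protein, was at 1611, 1797, 1753 and 1347 in WT and 2193, 2333, 2166 and 3015 in KO. The groups of Vps13d were well apart, and its lowest KO library was 1.21 times its highest WT library. Sorl1, a sorting receptor, had a ratio of 1.40 (1.38), and Tbc1d2, which inactivates Rab7, one of 1.79 with and 1.40 without KO replicate 4. Of 8 listed membrane traffic genes 7 were higher and 5 were members, and of 9 listed lysosome and autophagy genes 8 were higher and 2 were members.

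Capn5, a calcium-dependent protease of the calpain family, lies on the minus strand of chromosome 7 from 104760981 to 104819759 in the deposited table. It was at 3452, 3538, 2990.3 and 2613 in WT and 5499, 5274, 5196 and 4939 in KO, means of 3148 ± 430.4 and 5227 ± 231 (SD, n = 4 each). Under the deposited scaling no other member had so wide a gap, since its lowest KO library was 1.40 times its highest WT library, and KO replicate 4 was its lowest KO library. Under TMM scaling (edgeR's trimmed mean of M-values) that gap was 1.102, and among others Epb41l1 at 1.28, Pag1 at 1.25 and Vps13d at 1.17 were wider. Its deposited log2 fold change was 0.73 with an adjusted p of 0.0437 by DESeq2 in the authors' deposited table. Refits of the recovered reads of the listed genes gave Capn5 an adjusted p of 0.867 by edgeR, 0.742 by limma and 0.00188 by DESeq2. These refits estimated variance from the listed genes alone, so they are not a check of the deposited call. Without KO replicate 4 the ratio was 1.69, against 1.66 with it. Cast, the inhibitor of the classical calpains, was at 2716, 2837, 2663 and 2718 in WT and 3222, 3349.9, 3151 and 3113 in KO, the smallest change in the set with little spread in either group.

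Channels and secretory genes were also among the larger changes. Ano1, a chloride channel opened by calcium, was at 2476, 3160.1, 3737 and 1649 in WT and 4842, 5009.9, 4606 and 5031 in KO, so that WT varied widely and KO hardly at all. Stim1, the calcium sensor of the endoplasmic reticulum, was at 1033, 1082, 1249.9 and 1234 in WT and 1376, 1542, 1452 and 3281 in KO, with a ratio of 1.66 that was 1.27 without KO replicate 4. Tmem63a, a channel that responds to membrane tension, had ratios of 1.67 and 1.34. Of 9 listed ion channels and pumps 6 were higher, and these 3 were members. Wfdc2, a secreted protein with the fold of whey acidic protease inhibitors, was at 683, 1057, 1079 and 421 in WT and 1889.6, 1392, 1146 and 4921 in KO, with the largest ratio of the set, 2.89, and 1.82 without KO replicate 4. Its KO values were widely spread. B3gnt3, a glycosyltransferase that extends mucin-type glycans, was at 1473, 1977, 3316 and 3046 in WT and 3665, 4417, 4127 and 5524 in KO, the only member among 6 listed glycosylation genes, all higher.

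**Figure D3:**
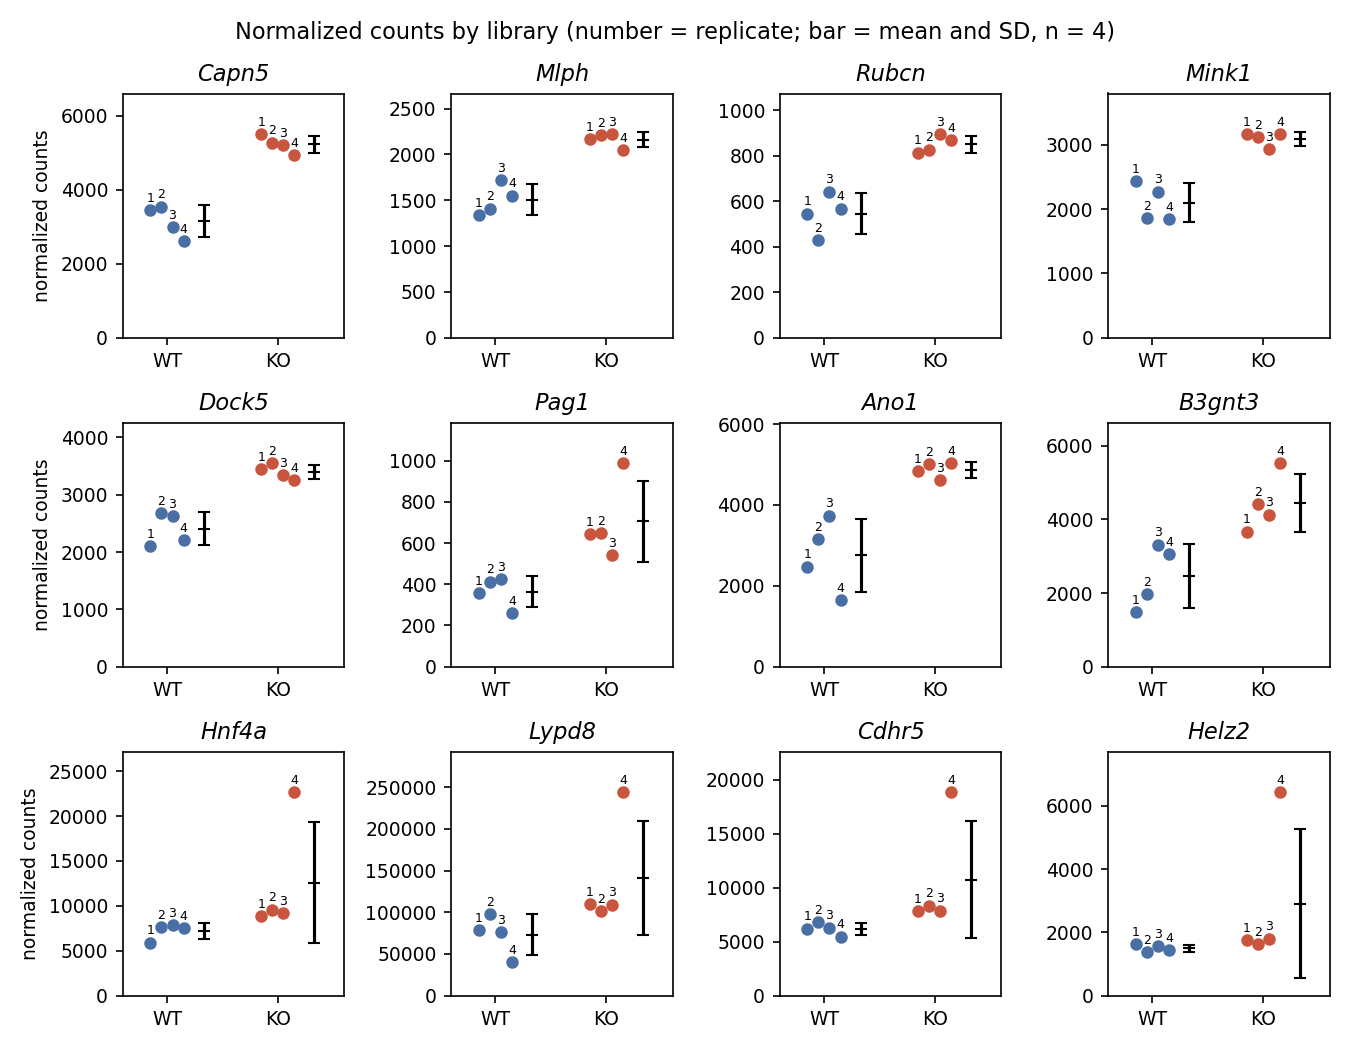
Normalized counts of 12 members, each point a library with its replicate number, with mean and SD (n = 4) beside each group; axes start at 0. In Capn5, Mlph, Rubcn, Mink1, Dock5 and Ano1 the 4 KO points lie together, and in Hnf4a, Lypd8, Cdhr5 and Helz2 KO replicate 4 stands far above replicates 1 to 3.

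Transcriptional regulators made up 6 members from 20 listed, of which 17 were higher and 3 lower. Ncoa3, a coactivator of nuclear receptors, was at 724, 649, 964 and 511 in WT and 1060.5, 1092, 1002 and 2453 in KO. In Ncoa3 KO replicates 1 to 3 sat a little above the highest WT library and replicate 4 at more than double. Foxo3, a forkhead factor held in check by Akt signalling, was at 1301, 1405, 1291 and 1481 in WT and 1698, 1720.0, 1811 and 3218 in KO, again with replicate 4 apart. The others were Hnf4a and Klf5, described above, the forkhead factor Foxj2 at a ratio of 1.32 (1.34), and Mlxip, a partner in glucose-sensing transcription, at 1.43 (1.21). From the chromatin list, Med12, a subunit of the Mediator kinase module, had a ratio of 1.49 (1.43), and Setd1b, which methylates lysine of histone H3, had 1.40 (1.36). Of 8 listed genes of that list 6 were higher.

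Several of the largest fold changes fell outside these roles. Themis3, of a family best known in thymocytes and also expressed in intestine, was at 256, 371, 276 and 350.0 in WT and 574, 437, 543 and 1771 in KO. Spats2l was at 388, 390.4, 365 and 243 in WT and 649.8, 518, 603 and 1587 in KO. In both, KO replicates 1 to 3 were above WT and replicate 4 was more than 2 times their level. Pag1, a membrane adaptor that recruits the kinase Csk, was at 357, 413, 426 and 260.0 in WT and 642, 649, 541 and 988 in KO, a ratio of 1.94 that was 1.68 without KO replicate 4. Helz2, a helicase that acts as a nuclear receptor coactivator, was at 1622, 1375, 1555 and 1439 in WT and 1749.8, 1632, 1797 and 6428 in KO, so that its ratio of 1.94 rested on 1 library and was 1.15 without it. No member came from the interferon and innate sensing list (5 listed, all higher) or the ubiquitin list (6 listed, all higher). These lists do not hold every gene of such roles. The members Tirap and Naip2, described below, and Ubr2, a ubiquitin ligase, are on neither.

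Further members, which the naming rule does not cover, were picked with their values in view. Mlph, melanophilin, which links Rab27 vesicles to myosin, had the second lowest p of the set and was at 1337, 1408, 1718 and 1549.9 in WT and 2169, 2207, 2219.9 and 2045 in KO. Lrrc41, a leucine-rich repeat protein, was at 552, 568, 519 and 509 in WT and 815, 692, 831 and 729 in KO. Htt, huntingtin, was at 872, 989, 1069 and 932 in WT and 1439, 1170.2, 1411 and 1106 in KO, with KO replicate 4 the lowest KO library. In these 3 KO replicate 4 was not the highest KO library.

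Other traffic machinery, on the fixed list or not, included related pairs. The kinesins Kif13a and Kif13b, motors that carry cargo along microtubules, had KO over WT ratios of 1.47 and 1.81, and 1.36 and 1.41 without KO replicate 4. The tethering subunits Trappc8 and Trappc10 had 1.31 (1.26) and 1.37 (1.23), and the large repeat proteins Heatr5a and Heatr5b 1.37 (1.26) and 1.39 (1.42). Vps13c, a relative of Vps13d, had 1.31 (1.28). Arcn1, the delta subunit of the COPI coat, had 1.35 (1.24), Sec16a, which organises endoplasmic reticulum exit sites, 1.23 (1.197), Synrg, a partner of the AP-1 coat adaptor, 1.27 (1.24), and Synj1, a phosphoinositide phosphatase of endocytosis, 1.45 (1.27).

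Metabolic enzymes that the rule's name filter had not removed covered choline, lipids, cofactors and purines. Chdh, which oxidises choline, was at 1032, 1181, 1741 and 979 in WT and 1759, 2092, 2026 and 2497 in KO, and its highest WT library nearly met the lowest KO library. Pon3, a lactonase, was at 451, 429, 400.5 and 416 in WT and 625, 628, 536 and 583 in KO, even within both groups. Coq9, needed to make coenzyme Q, had a ratio of 1.55 (1.40), Gda, the guanine deaminase, 1.41 (1.30), Lclat1, a cardiolipin and phospholipid acyltransferase, 1.74 (1.41), and Liph, a phospholipase that forms lysophosphatidic acid, 1.24 (1.204).

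Signalling and nuclear members of this further choice were mostly at ratios under 1.5. Arrb1, a beta-arrestin that uncouples receptors from G proteins, was an exception at 1.78 (1.47), with 711, 858, 698 and 1095 in WT and 1223, 1268, 1209 and 2281 in KO; here WT replicate 4 was the highest WT library. Akap13, a kinase anchor with a nucleotide exchange domain, had 1.37 (1.37), Eef2k, the kinase of elongation factor 2, 1.37 (1.24), Prkab1, a subunit of AMP-activated kinase, 1.38 (1.23), and Tirap, an adaptor of Toll-like receptors, 1.41 (1.37). Of nuclear members, Exosc10, a nuclease of the RNA exosome, had 1.30 (1.28), Cxxc1, which binds unmethylated CpG islands, 1.25 (1.23), Ubn1, a histone chaperone subunit, 1.25 (1.21), and Rreb1, a zinc finger factor downstream of Ras, 1.35 (1.35). Naip2, a sensor of bacterial secretion proteins, had 1.33 (1.30) and belongs to a family of near-identical copies, so its counts are uncertain.

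By spread, the members' median coefficient of variation was 14.0% in KO and 13.1% in WT. Over replicates 1 to 3 alone it was 6.26% in KO and 10.2% in WT. The gap between groups was narrow for most. The lowest KO library was at least 1.1 times the highest WT library in 46 members, and at least 1.2 times in 11, with a median of 1.06. Just inside the limit were Cnksr1 and Camta2 at 1.002 and Prkd2 at 1.004, and just outside lay Ermp1 at 0.998, Mark2 at 0.997 and Lrba at 0.997. For the level, Pon3 (509) and Pag1 (535) were just inside, and Il22ra1 (496), Tubgcp4 (496) and Serhl (489) just outside.

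Scaling moved the count most. When the recovered reads of the listed genes were scaled by TMM, the median log2 ratio over all listed genes went from 0.48 to 0.32, a shift of -0.16, and 65 genes met the rule. TMM was computed on the listed genes alone, whose median lies above WT. No member fell below WT under it, and the member median was 0.32, the same as that of all listed genes. Of the 50 members named by rule 29 kept the groups apart, with Epb41l1, Pag1, Vps13d, Spats2l and Gpa33 widest, and Lypd8, Plxnb2, Iqgap1, Abhd2, Dock5 and Helz2 among those that did not.

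The members were longer than the genes of the opposite pattern. Median gene length in the table was 5839 bases in the members, 3036 in the 107 abundant coding genes that were lower in every KO library, 4937 in the abundant coding genes that were higher with overlapping groups and 3041 over all listed genes. The minimum of 500 normalized counts is not divided by length and was applied alike to the members and the lower set. Lengths of members ran from 812 to 24771 bases. Some deposited lengths are too short for the whole transcript. The member of 812 bases was matched to Nacc1, whose longest GENCODE 3′ UTR alone has 2559 bases.

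**Figure D4:**
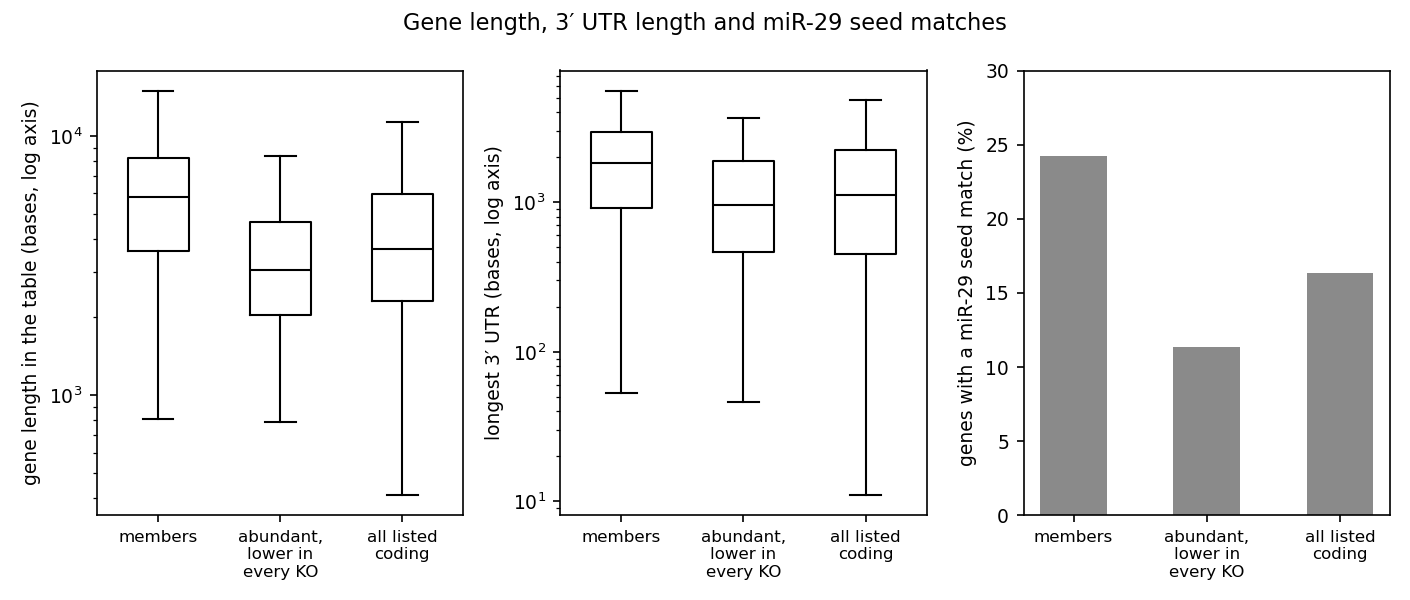
Boxes give the median and quartiles of gene length and of 3′ UTR length (log axes, whiskers to 1.5 times the interquartile range, points beyond not drawn), and bars give the percentage of genes with a miR-29 seed match, for the members, the abundant coding genes lower in every KO library and all listed coding genes. Of the sets drawn, the members have the longest genes (median 5839 bases), the longest UTRs (1841 bases) and the largest share with a match (24.3%). The other abundant coding genes higher in KO, which are not drawn, had medians of 5025.5 and 1360 bases and a share of 21.3%.

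Protein domains in the table's annotation, present for 105 members, repeated the roles above. A protein kinase domain was annotated in 5 members (4.76%, beside 3.40% of listed coding genes with domains). The guanine nucleotide exchange domain PF00621 was in 4 (3.81%, beside 1.33%), as was the actin-binding calponin homology domain (3.81%, beside 0.728%). The plexin repeat was in 3. In the lower set none of the 84 genes with domains carried a kinase, PF00621, calponin homology or plexin repeat domain. Members lay on every autosome and on X, with 13 on chromosome 7. Dido1 and Gid8 are neighbours on chromosome 2 with a gap of 118 bases in the table.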

How the data were processed

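RNA of colon tumours was measured in 4 WT and 4 KO libraries; groups and replicate numbers come from the titles. Per the labels' protocols, RNA was taken with TRIzol and libraries were made with the NEBNext Ultra Directional kit. The submitters' processing notes name HISAT2, DESeq2 and the human build GRCh38, whereas the gene identifiers are of the mouse C57BL/6NJ annotation; no label used here says whether counting used strand. Per the file headers, the deposited table holds a signal per library, and the authors' DESeq2 log2 fold change, p-value and adjusted p-value. The signal was taken as counts divided by a size factor, which no label used here states. Each factor was inferred from the step of which the library's values are whole multiples. Every signal value times that inferred factor fell within 0.001 of a whole read in 100% of cases. The factor was chosen to give whole reads, so this is no independent check. Ratios, SDs and ranges were computed from the signal with pandas 2.3.3.

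Members and lists were chosen with earlier results of these data known. Named genes are the 10 members with the highest mean, the 10 with the largest deposited log2 fold change, those past a deposited adjusted p of 0.05 and up to 3 per role list by smallest p. Alternatives refitted the recovered counts, rounded to whole reads, with edgeR 4.0.16, DESeq2 1.42.0 and limma 3.58.1 (log2 of the value plus 1), adjusting over 19985 genes; edgeR was first tested on simulated data. Nothing in the titles says whether the replicate numbers pair the libraries, so a replicate block was used only as an alternative. The longest 3′ UTR per gene of GENCODE M21 (GRCm38, a C57BL/6J sequence) was matched by symbol or synonym for 136 of 138 members. Values of some genes are not given in the text.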

Additional observations from a re-analysis of the deposited data

Results flagged for a closer look

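Among the 50 named members, 100 groups of 4 libraries were looked at for a library far from the other 3, and 21 showed one. Chance flags about 1 in 20 independent groups, but these groups share the same 8 libraries and the members were chosen on these values, so the count cannot be set against that rate. In 19 of these the library was KO replicate 4, the highest of its group. It read 243970 normalized counts for Lypd8, 22928 for Actn4, 22661 for Hnf4a, 18899 for Gpa33, 18826 for Cdhr5 and 10146 for Plcb3. It read 6428 for Helz2, 4594 for Dgka, 3281 for Stim1, 3218 for Foxo3, 3198 for Tspan15 and 3001 for Efnb1. For Plce1 it was 2573, for Ncoa3 2453, for Epb41l1 2124, for Themis3 1771, for Spats2l 1587, for Ppp1r12a 1457 and for Atg9a 968. Plec in KO replicate 3 was low at 13078, and Hnf4a in WT replicate 1 was low at 5904.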

How the results depend on the processing

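The rule gave 138 genes as stated, 162 with a minimum mean of 250, 101 with 1000, 155 without the name filter and 65 under TMM scaling of the recovered reads. Leaving out 1 library gave 142 to 189 genes, since fewer libraries must lie apart, and leaving out replicate 4 of both groups, an alternative added after seeing the data, gave 153. The median log2 ratio of the 138 members was 0.50 and ran from 0.38 to 0.54 without 1 library. No member lay below WT under TMM; leaving out libraries cannot turn a direction, since the rule sets the groups apart. The authors' deposited table has 8 listed genes past an adjusted p of 0.05. Refits of the listed genes gave 0 by edgeR, by edgeR with the replicate block, with TMM, or with a mean of at least 10, 0 to 0 by edgeR without 1 library, 0 by limma and 37 by DESeq2, 10 of them members; Capn5, the member called in the deposited table, was lost by edgeR and limma and kept by DESeq2. At an unadjusted p below 0.05, edgeR had 1112 of 1428 listed genes, limma 1027, DESeq2 1355, edgeR with the replicate block 559 and edgeR with TMM 890. Of the members, 136 were below that p by edgeR, 65 with the replicate block, 53 with TMM and 74 (without WT replicate 1) to 121 without 1 library. The refits estimated variance from the listed genes alone, whereas the deposited adjusted p refers to 19985 genes. Their counts are therefore not a check of the deposited calls. The cause of these changes was not tested. Library depth is unknown, so no limit from it is stated.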
